A study of Mus musculus with 6 samples.

Results

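The core histone genes of the histone clusters are described here in bone marrow cells sorted and labelled as megakaryocytes (MKs). They were chosen by their symbols, as the rows named H2ac, H2bc, H3c or H4c followed by a number, which gave 47 genes of 16579 in the deposited table. The table also has 8 rows with older Hist1h symbols for H2A, H2B or H4 genes, which this choice leaves out and which are given separately. It also leaves out the H2A gene H2aw, at 78.8 to 129 estimated counts per library, and the H2B gene H2bu2, at 5 to 25. Of the 47 genes, 13 encode histone H2A, 13 encode H2B, 12 encode H3 and 9 encode H4. In the RefSeq annotation, 37 of the 47 lie on chromosome 13 and 10 on chromosome 3. MKs were sorted by flow cytometry from the marrow of 3-month-old mice and sequenced in 6 libraries, 3 labelled Becn1f/f (Becn1 flanked by loxP sites, no Cre) and 3 labelled Becn1f/f;Pf4-iCre (the same floxed Becn1 with Cre driven by the regulatory sequence of Pf4, the platelet factor 4 gene, which is active in the megakaryocytic lineage). Becn1 encodes Beclin 1, an autophagy protein, and the comparison asks what its deletion does to MK transcripts. The labels do not say whether a library is 1 mouse or a pool, so the spread below is that between libraries. Neither label is borne out by these values alone. Becn1 was at 118 ± 9.37 CPM (counts scaled for library size) in Becn1f/f and 106.9 ± 2.74 in Becn1f/f;Pf4-iCre libraries (SD, n = 3), and the values overlapped. By quantitative PCR, the paper reports less Becn1 mRNA in marrow cells of Becn1f/f;Pf4-iCre mice positive for CD41, an MK antigen. It also reports that Becn1 protein could not be detected in platelets of these mice. Pf4, a defining MK gene, was at 2.08 to 6.73 CPM, and Gp9 at 1.13 to 1.78. Itga2b, which encodes the CD41 antigen of MKs, was at 142 to 187, and Itgb3 at 79.8 to 143. In sum, 16 MK markers were at 2343 to 4867 CPM, nearly all of it Thbs1, a gene other cells also express. The 16 neutrophil markers summed to 9624 to 17532 CPM. Genotype and cell type below are therefore those of the labels.

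Core histones are the proteins around which DNA is wrapped in the nucleosome. The clustered genes are known for being transcribed mainly in S phase, when new DNA is packaged, and most of their mRNAs end in a conserved stem-loop instead of a poly(A) tail. Replacement histones such as H3.3, by contrast, come from genes outside the clusters with polyadenylated mRNAs and are made throughout the cell cycle. MKs become polyploid by repeated rounds of DNA synthesis without cell division. The RNA in these libraries is labelled total RNA, and whether polyadenylated RNA was selected is not given in the sources used here.

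The 3′ stem-loop is shown because it sets these mRNAs apart from other mRNAs. With the paired stem bases in capitals, it reads as follows, and it was found by searching the 100 bases after the stop codon in the GENCODE M21 transcripts.
3′ stem-loop: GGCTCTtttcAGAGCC
Exactly these 16 bases followed the stop codon in 18 of the 47 genes, and in 27 of 21662 protein-coding genes searched. Many annotated transcripts end too soon to show it, and of the 21 members with 100 annotated bases after the stop codon, 10 held it exactly and 15 held it with up to 2 differences. The match was to this sequence alone, so a stem-loop that differs at more bases was not counted. The 6 that did not hold it were H2bc4, H2bc21, H4c9, H4c1, H4c11 and H4c14. Their mean estimated counts ran from 0.835 to 304, with a median of 44.6, against 4.84 to 203 and a median of 16.6 in the 15 with it. The ranges of both sets overlap, and this is a description of levels with no test.

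Promoters of 42 members were matched in RefSeq (GRCm38.p6), each covering 250 bases before and 50 after the start. The letters CCAAT, on either strand, were in 37 of the 42 (88.1%), against 37.4% of 32851 promoters in the table. All 13 H2A, 11 H2B and 10 H3 promoters held CCAAT, as did 3 of 8 H4 promoters. TATAAA was in 24 (57.1%), against 13.6% of all promoters. The octamer ATTTGCAT was in 5 H2A and 6 H2B promoters and in none of the H3 or H4 promoters matched, against 1.74% of all promoters. CCAAT and ATTTGCAT can share the letters AT where they adjoin. The 3 promoters printed here belong to highly counted members of 3 families, and capitals mark the motifs on either strand.
H2ac18 promoter, chr3:96245247-96245546, + strand: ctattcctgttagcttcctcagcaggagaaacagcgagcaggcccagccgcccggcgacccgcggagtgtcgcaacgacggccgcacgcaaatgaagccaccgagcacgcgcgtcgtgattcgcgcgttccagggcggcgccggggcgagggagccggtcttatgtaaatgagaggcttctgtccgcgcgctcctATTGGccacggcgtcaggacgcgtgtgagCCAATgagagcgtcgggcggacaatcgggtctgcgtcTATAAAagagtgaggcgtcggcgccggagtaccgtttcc
H2bc8 promoter, chr13:23571150-23571449, + strand: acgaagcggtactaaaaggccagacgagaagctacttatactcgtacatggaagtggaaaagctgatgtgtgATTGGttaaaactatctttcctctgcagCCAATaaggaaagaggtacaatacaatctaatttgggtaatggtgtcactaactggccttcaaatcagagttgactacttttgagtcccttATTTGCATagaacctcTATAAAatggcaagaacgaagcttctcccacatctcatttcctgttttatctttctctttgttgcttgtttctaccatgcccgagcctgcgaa
H4c9 promoter, chr13:22041313-22041612, - strand: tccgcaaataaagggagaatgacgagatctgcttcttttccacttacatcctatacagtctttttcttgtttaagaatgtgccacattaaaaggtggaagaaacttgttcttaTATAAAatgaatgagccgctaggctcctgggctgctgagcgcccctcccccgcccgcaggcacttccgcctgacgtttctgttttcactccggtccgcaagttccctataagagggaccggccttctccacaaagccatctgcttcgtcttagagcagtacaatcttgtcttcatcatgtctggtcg
The H2bc8 window holds all 3 motifs. It spans the 179 bases between H2bc8 and H2ac8, which are transcribed away from each other, and runs into both genes. There were 6 such divergent pairs of an H2A and an H2B gene. The windows of such partners overlap, so a motif in the overlap was counted for both genes. Motifs were counted wherever they lay in a window. Mean counts of the partners were 57.1 for H2bc8 and 28.6 for H2ac8, and 26.4 for H2ac11 and 18.2 for H2bc11. The partners differed most in H2ac7 and H2bc7, at 23.5 and 2.94 counts. Within a pair, mean counts differed 1.45 to 7.97 times. These counts are not scaled for gene length. The partners also share 43.2% (H2ac8) to 90.7% (H2ac12) of their 50-base stretches with other genes' transcripts, so the counts need not be levels of single genes.

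Transcripts of the clustered core histones were scarce in these libraries, for which selection of polyadenylated RNA is not known. Their estimated counts summed to 1071, 1512 and 1284 in Becn1f/f libraries 1, 2 and 3, and to 1534, 1059.8 and 1152 in Becn1f/f;Pf4-iCre libraries 1, 2 and 3. That is 0.00644% to 0.00894% of the total of 16467560 to 17156728 counts per library. Of the 47 genes, 3 averaged at least 100 counts, 24 averaged 10 to 100 and 20 averaged fewer than 10. The 4 most counted genes, H2bc4, H2ac18, H2bc21 and H4c9, held 58.1% of all member counts. In 7 genes, at least 1 library was listed at 0, and no gene was at 0 in every library.

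**Figure D1:**
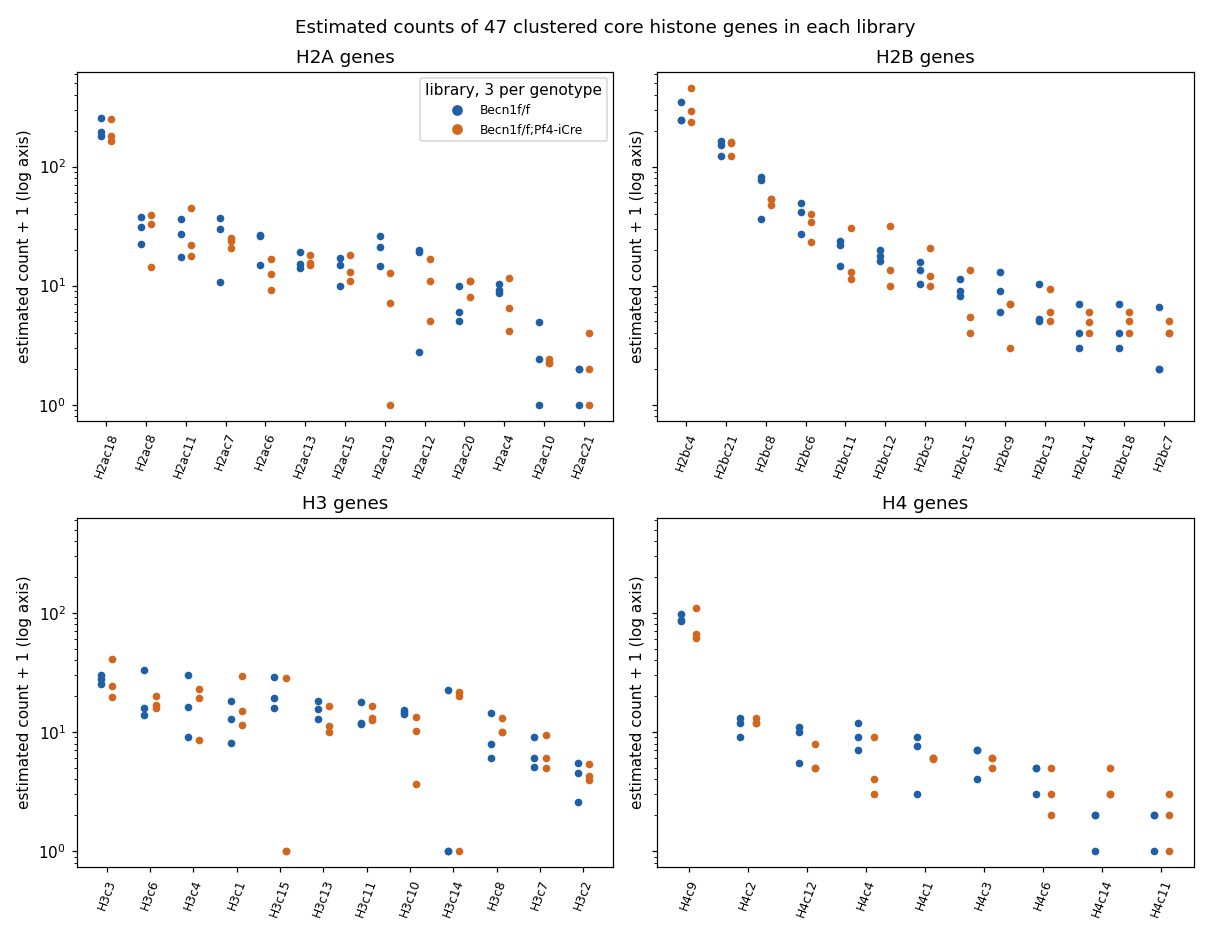
Estimated count plus 1 (log axis) of each of the 47 genes in each of the 6 libraries, with 1 panel per family, genes ordered by mean count, and 1 point per library coloured by genotype. A few genes lead each family (H2ac18 at 203, H2bc4 at 304, H4c9 at 83.9 mean counts), while no H3 gene averaged above 27.03, and the points of both genotypes lie over each other for most genes.

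Among H2B genes, which encode the partner of H2A in the nucleosome, H2bc4 had the most counts. It was counted 244, 350 and 246 times in the Becn1f/f libraries and 458, 236 and 292 times in the Becn1f/f;Pf4-iCre libraries. Becn1f/f;Pf4-iCre library 1 was the highest and library 2 of the same genotype the lowest, so the genotypes overlapped. H2bc4 alone made up 29.8% of member counts in Becn1f/f;Pf4-iCre library 1 and 19.1% to 25.3% in the others. H2bc21, singled out after its values were seen, was steadier, at 122, 151 and 163 counts in Becn1f/f libraries and 121, 156 and 160 in Becn1f/f;Pf4-iCre libraries. It was also the member with no 50-base stretch shared with another gene's transcript. H2bc8 had 35.0, 80.8 and 75.6 counts in the Becn1f/f libraries and 52.9, 52.3 and 46.4 in the Becn1f/f;Pf4-iCre libraries, the latter all lying inside the range of the former.

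Among H2A genes, H2ac18 led with 178, 254 and 193 counts in the Becn1f/f libraries and 252, 180.1 and 163 in the Becn1f/f;Pf4-iCre libraries. The next by FPKM, a level scaled for transcript length and sequencing depth, were H2ac11, at a mean of 9.50, and H2ac8, at 6.91. H2ac18 had a mean of 49.8 FPKM.

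Among H3 genes, H3c3 was the highest at 9.42 FPKM, followed by H3c4 at 5.11 and H3c1 at 4.66. H3c3 was counted 26.7, 28.8 and 24.3 times in Becn1f/f libraries and 40.0, 18.9 and 23.5 times in Becn1f/f;Pf4-iCre libraries. The Becn1f/f libraries lay inside the range of the others. H4 was represented mainly by H4c9, at 84.0, 97.2 and 87.0 counts in Becn1f/f libraries and 108, 61.0 and 66.0 in Becn1f/f;Pf4-iCre libraries. The other H4 members averaged 0.835 to 10.9 counts.

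The 8 rows with older symbols summed to 7.67 to 9.50 CPM per library. Among them, Hist1h2ao averaged 35.5 counts, Hist1h2br and Hist1h2bq 33.3 each, Hist1h4n 15.1, Hist1h2an 12.6 and Hist1h4m 11. Among the H2A members, only H2ac18 (203) averaged more than Hist1h2ao, and H2ac8 came after it at 28.6. Only H4c9 (83.9) of the H4 members averaged more than Hist1h4n and Hist1h4m, with H4c2 after them at 10.9. Hist1h2br and Hist1h2bq lie under H2bc4, H2bc21, H2bc8 and H2bc6 (34.8) and above the other H2B members.

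The order of levels depended on the scale. On FPKM, H2bc4 (54.8), H2ac18 (49.8) and H4c9 (48.6) were close, although H4c9 had 83.9 counts and H2bc4 had 304. H2bc21, at rank 3 by counts, was at rank 20 by FPKM, at 3.67. From the deposited count and FPKM of each gene and the summed counts of each library, the length used for scaling was 99.6 bases for H4c9, whose RefSeq gene spans 403 bases, and 2349 for H2bc21, which spans 2667. In 7 members that span under 1000 bases and averaged at least 20 counts, this length was 303 to 318 bases shorter than the span. Over all members where it could be computed it ran from 80.3 to 2349 bases, so a single count moved the FPKM of the shortest genes most.

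**Figure D2:**
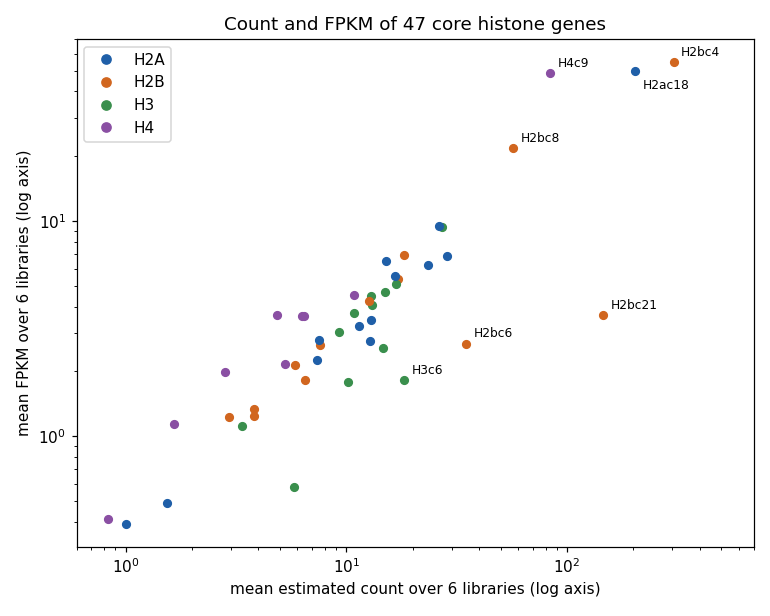
Mean FPKM against mean estimated count over the 6 libraries, both on log axes, with 1 point per gene coloured by family. H4c9 lies above the main band and H2bc21, H2bc6 and H3c6 lie below it, so genes with similar counts had different FPKM.

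Near-identical copies limit what can be said of single members. Coding sequences within a family were alike at a median of 96.4% for H2A, 97.1% for H2B, 97.2% for H3 and 93.9% for H4, over genes with coding sequence of the same length. An estimated count was not whole, by more than 0.005, in at least 1 library for 39 of 47 members (83.0%), against 14.7% of all other genes in the table. As background, tools that estimate counts divide a read that matches several transcripts among them, and the tool that made these counts is not given in the sources used here. In 2 cases, H2ac18 with H2ac19 and H3c14 with H3c15, the whole coding sequences were the same. The first 120 coding bases of H2ac18 and H2ac19, from the start codon, are printed because they are one and the same sequence, and no part is in capitals.
H2ac18 and H2ac19, coding bases 1 to 120: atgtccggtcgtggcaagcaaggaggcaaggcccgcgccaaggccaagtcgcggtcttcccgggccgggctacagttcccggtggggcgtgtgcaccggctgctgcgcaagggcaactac

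In H3c14 and H3c15, singled out after their values were seen, the counts lay with one gene or the other depending on the library. H3c14 was listed at 0, 0 and 21.5 counts in Becn1f/f libraries 1, 2 and 3, and at 0, 19.1 and 20.8 in Becn1f/f;Pf4-iCre libraries 1, 2 and 3. In the same order, H3c15 had 18.3, 27.7 and 14.9 counts, then 27.4, 0 and 0. In 5 of the 6 libraries, 1 of these genes was at 0 while the other was not, and the sum of both was 18.3, 27.7 and 36.4 in Becn1f/f libraries and 27.4, 19.1 and 20.8 in Becn1f/f;Pf4-iCre libraries. The dispersion index, the variance within genotypes over the mean, was 15.3 for H3c14 and 14.6 for H3c15 and 1.46 for their sum, where 1 is the value for counting error alone. For H2ac18 and H2ac19 it was 8.76 and 4.07, and 6.69 for their sum.

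H2ac19 had 25.0, 13.5 and 20.2 counts in the Becn1f/f libraries and 0, 11.9 and 6.21 in the Becn1f/f;Pf4-iCre libraries, so the genotypes did not overlap. Summed with H2ac18, they gave 203, 268 and 213 in Becn1f/f libraries and 252, 192 and 169 in Becn1f/f;Pf4-iCre libraries, and the genotypes overlapped. As CPM (counts scaled for library size, here by TMM) the sum was 13.4 ± 1.79 (SD, n = 3) in Becn1f/f and 12.2 ± 2.60 (SD, n = 3) in Becn1f/f;Pf4-iCre libraries. For the summed H3c14 and H3c15 these were 1.59 ± 0.452 (SD, n = 3) and 1.34 ± 0.249 (SD, n = 3).

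**Figure D3:**
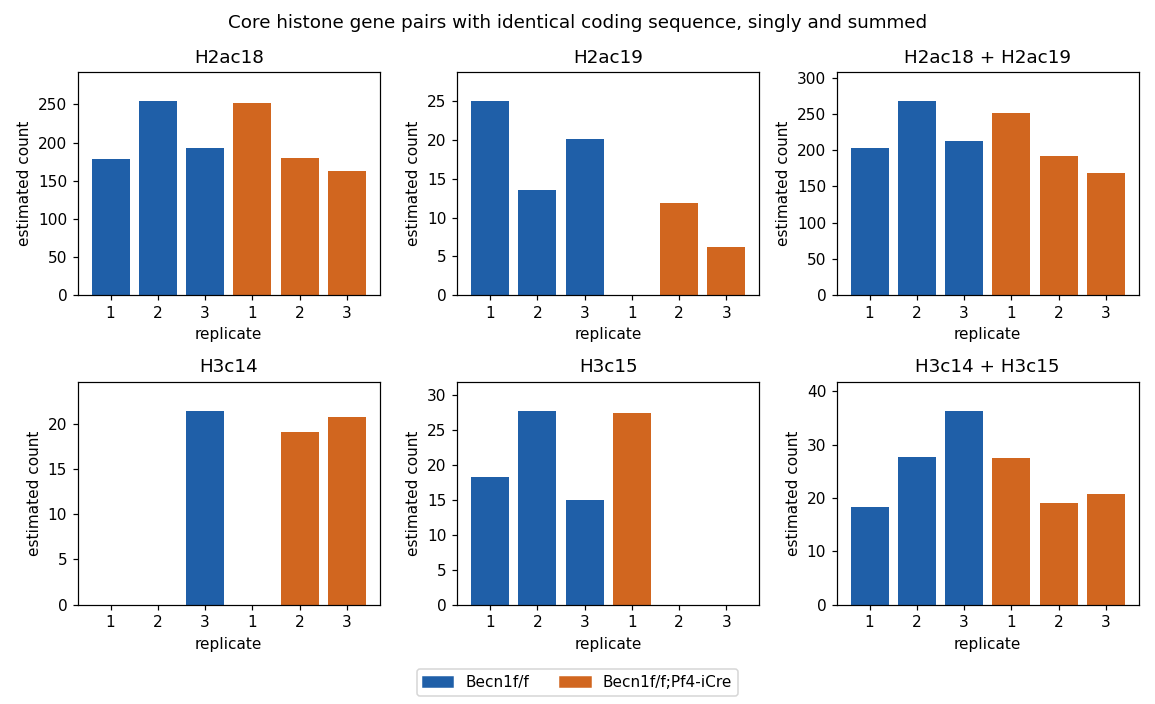
Estimated counts per library for H2ac18, H2ac19 and their sum, and for H3c14, H3c15 and their sum, as bars from 0 with 1 bar per library coloured by genotype. H2ac19, H3c14 and H3c15 are at 0 in some libraries while the sums stay between 169 and 268 and between 18.3 and 36.4.

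Tested members with a mean of 5 to 100 counts had a higher median dispersion index than all tested genes in that range. It was 3.47 for the 24 members, against 1.96 for the 2581 genes. The 2581 include the members, and counts were not matched within the range. The 24 include H3c14 and H3c15, whose index was lower when they were summed. This is a description of levels with no test.

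Differences between genotypes were fitted with edgeR (quasi-likelihood) over the 12256 genes passing its expression filter, with DEGs set at a fold change of at least 1.5 and an unadjusted P under 0.05. Since the members had been selected on results of these libraries, their values are given as a description. Of the 47 members, 27 passed the filter, and the other 20 are given only by counts. The log2 fold changes (Becn1f/f;Pf4-iCre minus Becn1f/f) were above 0 in 12 and below 0 in 15, with a median of -0.07, beside -0.02 over all tested genes. This median was -0.25 without Becn1f/f;Pf4-iCre library 1 and 0.07 without Becn1f/f library 2. By family, the medians were -0.07 for 9 H2A genes, 0.02 for 7 H2B genes, -0.08 for 9 H3 genes and 0.00 for 2 H4 genes. In bulk RNA, fewer cells of a type and less RNA per cell cannot be told apart.

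Of the 27 tested members, 1 passed the DEG thresholds, where 2.30% of all tested genes did, and it was lower, as 0.938% of all tested genes were. It was H2ac19, with a log2 fold change of -1.67 (standard error 0.63), whose identical partner H2ac18 had -0.04 (standard error 0.20). The log2 fold change of H2ac19 was -1.10 without Becn1f/f;Pf4-iCre library 1 and -2.65 without library 2. The call was lost without Becn1f/f library 1 (-1.40) or Becn1f/f;Pf4-iCre library 3 (-1.66). With the genes of identical coding sequence (identical genes below) summed before the fit, 0 of 25 members passed. At an adjusted p under 0.05, 0 members were called by edgeR, with 1 at an unadjusted P under 0.05, and 0 by DESeq2, where edgeR called 0.0408% of all tested genes. The CPM of the genotypes did not overlap in 2 tested members, H2ac19 and H3c10, where 10.6% of all tested genes did not overlap. H3c10 had 14.2, 13.8 and 13.1 counts in Becn1f/f and 2.63, 9.26 and 12.3 in Becn1f/f;Pf4-iCre libraries, with a log2 fold change of -0.74 (standard error 0.45), and 93.9% of its 50-base stretches occur in another gene's transcript. Its log2 fold change was -0.35 without Becn1f/f;Pf4-iCre library 1 and -1.14 without library 3. H4c14, too low to be tested, was counted 1, 0 and 1 times against 4, 2 and 2 times.

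**Figure D4:**
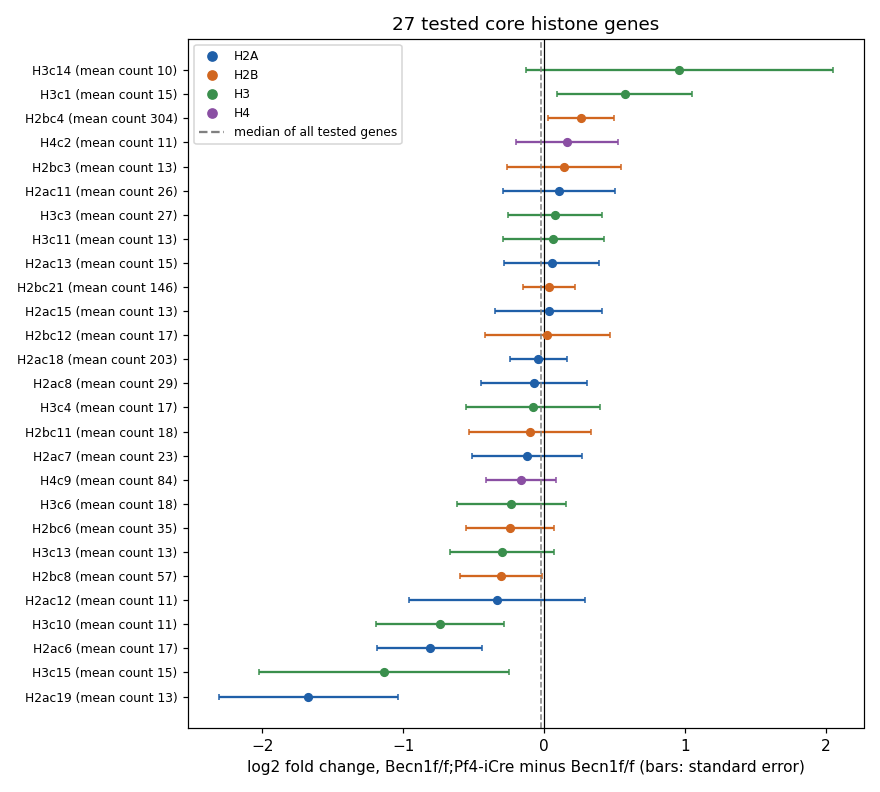
Log2 fold change (Becn1f/f;Pf4-iCre minus Becn1f/f) of the 27 tested members, with bars of 1 standard error, coloured by family and ordered by size, and the median of all tested genes (-0.02) as a dashed line. The genes farthest from 0, H2ac19, H3c15 and H3c14, each share their whole coding sequence with another member, as does H2ac18 at -0.04. The genes with the most counts lie near 0.

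The most counted genes set the closest limits. H2bc21 had a log2 fold change of 0.03, with a 95% interval of -0.37 to 0.43, H2ac18 one of -0.04 (-0.48 to 0.40), H4c9 one of -0.16 (-0.70 to 0.38), H2bc4 one of 0.26 (-0.25 to 0.77) and H2bc8 one of -0.31 (-0.94 to 0.33). All 5 intervals contain 0, and that of H2bc21 was the narrowest of the 5.

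Summed over all 47 genes, so that no member is left out by its level, the CPM was 67.0, 87.1 and 72.5 in Becn1f/f libraries and 91.9, 63.9 and 68.4 in Becn1f/f;Pf4-iCre libraries. This averaged 75.5 ± 10.4 in Becn1f/f and 74.7 ± 15.1 in Becn1f/f;Pf4-iCre libraries (SD, n = 3), a log2 ratio of -0.02 that ran from -0.19 without Becn1f/f;Pf4-iCre library 1 to 0.10 without Becn1f/f library 2, and the highest and the lowest sum both belonged to Becn1f/f;Pf4-iCre libraries. Per family, the summed CPM was 22.7 ± 3.78 and 20.9 ± 4.27 for H2A, 35.6 ± 5.12 and 37.8 ± 6.99 for H2B, 9.51 ± 1.23 and 9.12 ± 2.09 for H3, and 7.73 ± 0.69 and 6.87 ± 1.95 for H4 (SD, n = 3, Becn1f/f first). Becn1f/f;Pf4-iCre library 1 was the highest of its genotype in all 4 families, and the genotypes overlapped in each.

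**Figure D5:**
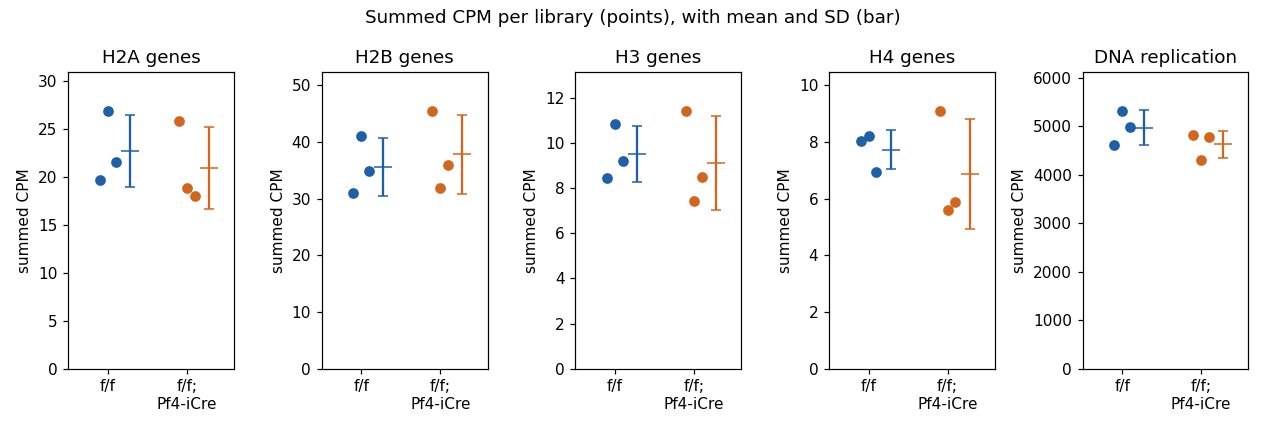
Summed CPM per library for the H2A, H2B, H3 and H4 genes and for 45 DNA replication genes, with points for the 3 libraries of each genotype and a bar for the mean and SD. In every panel the points of Becn1f/f (blue) and Becn1f/f;Pf4-iCre (orange) overlap.

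The members were set beside genes of related function from fixed lists. Over all 12256 tested genes, 5579 were above 0 and 6677 below, and 2.30% passed the DEG thresholds. Of 45 DNA replication genes, 7 were above 0 and 38 below, the median being -0.08 (log2), 0 passed the DEG thresholds, and their summed CPM was 4972 ± 355 in Becn1f/f and 4631 ± 278 in Becn1f/f;Pf4-iCre libraries (SD, n = 3). Likewise, 0 of 30 mitosis genes (median -0.04), 0 of 20 histone chaperones (-0.08) and 0 of 21 histone mRNA factors (-0.01) passed. Also, 0 of 10 tested genes listed as replacement histones (-0.06) and 0 of 7 linker histones H1 (-0.06) passed. The replacement list included H2aw and the untested H2bu2, which are further core histone genes and not replacement histones. Slbp, which binds the stem-loop of histone mRNA, was at 0.18 (log2 fold change, standard error 0.13), Npat, which drives transcription of the clusters, had -0.05 (0.19), and Lsm11, a part of the U7 particle that cuts histone mRNA, had -0.11 (0.16).

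Replacement histones far outweighed the clustered genes per length in these libraries. Most clustered transcripts lack a poly(A) tail, and whether polyadenylated RNA was selected is not known. The values therefore need not reflect relative levels in the cells. The H3.3 genes H3f3a and H3f3b summed to 1446 to 1888 FPKM per library, while the 12 H3 members summed to 35.6 to 48.4. H2afz, H2afv, H2afx and H2afj, which are among the H2A variant genes outside the clusters, summed to 995 to 1454 FPKM, against 86.2 to 119 for the 13 H2A members, without the rows of older symbols. On the log2 scale H3f3a differed by 0.16 (standard error 0.16), H3f3b by 0.03 (0.14), H2afz by 0.03 (0.18) and H2afx by -0.18 (0.16), and none passed the DEG thresholds. Mki67, a gene of cycling cells, was at 134 to 168 FPKM in the same libraries.

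Some markers of other cell types passed the DEG thresholds, which use an unadjusted P, between the genotypes in these libraries. At an adjusted p under 0.05 by edgeR, 0 of the listed markers were called. The lowest adjusted p among them was 0.057, for the macrophage marker Mrc1. Itga2b, which encodes the CD41 antigen of MKs, was at 142 to 187 CPM. Of 15 tested MK markers, 1 (Pf4) passed the DEG thresholds, as lower. The 16 MK markers summed to 2379.5 to 4867 CPM in Becn1f/f and 2343 to 4330 in Becn1f/f;Pf4-iCre libraries, nearly all of it Thbs1, a gene other cells also express, at 2004 to 4472 CPM. The 16 neutrophil markers summed to 12398 to 17532 and 9624 to 12954 CPM, and of these 15 were below 0 with 1 (Mmp9) passing. All 14 erythroid markers were below 0, with 6 passing (Alas2, Ermap, Hba-a1, Klf1, Rhag and Slc4a1), as were all 12 B lineage markers, with 1 passing (Igll1). Of 13 tested macrophage markers, 12 were above 0 and 3 passed as higher (C1qc, Cd163 and Mrc1), and 0 of 9 T and NK genes passed. Over all tested genes, 2.30% passed, 0.938% as lower. No listed marker was at 0 in every library, and the part of these markers in the levels above was not tested.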

How the data were processed

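RNA of sorted bone marrow MKs was measured in 3 Becn1f/f and 3 Becn1f/f;Pf4-iCre libraries, grouped by their labels. Reads were filtered and mapped with HISAT by the authors, whose deposited table gives 1 estimated count and 1 FPKM value per gene and library; Bowtie2 and the build GRCm39 (mm39) are also named in the submitters' processing notes. The deposited estimated counts carry no normalization. In the deposited FPKM, the authors corrected for length and depth. Not used here were 16 further columns of per-sample values, of which 4 belong to a library that matches no sample, and 8 columns of group means.

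Estimated counts were rounded to whole numbers, filtered by edgeR's expression filter, scaled by TMM and fitted with edgeR 4.0.16 (R 4.3.3) with genotype as the only factor; adjustment was by Benjamini-Hochberg over all tested genes. Standard errors were taken as the absolute log2 change over the square root of F. Intervals use the t distribution of the fit. The members and lists were chosen with earlier results of these data known. Named members are the 3 with the highest mean FPKM per family, those past the DEG thresholds and those whose genotypes do not overlap; others are said to be singled out. Sequences are from RefSeq and GENCODE M21 on GRCm38, not the build of the files, and give no position for a count.

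Alternatives were DESeq2 1.42.0, its size factors, other filters, the replicate block, limma 3.58.1 on log2(FPKM + 1) and log2(FPKM + 0.1), a GC content and length correction, and leaving out each library; summing identical genes was added after the data were seen. In 6 simulated data sets of 12256 genes with gene-wise dispersions and 200 genes changed 4-fold, edgeR recovered 193 to 197 at an adjusted p under 0.05. Of its calls there, 4.39% to 9.63% were false, and 3.45% to 5.80% in 6 sets with trended dispersions, so adjusted p-values can be too small where dispersion varies by gene, while 4.84% to 5.39% of unchanged genes had an unadjusted p under 0.05.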

Additional observations from a re-analysis of the deposited data

How the results depend on the processing

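Depth limits single members: 20 of 47 were too low to test, and 39 had counts that were not whole. The number of members past the DEG thresholds was 1 and became 0 with at least 10 counts in every library (14 members tested), 0 with the GC content and length correction (H2ac19 then at -1.53, against -1.67), 0 with identical genes summed and 0 at an adjusted p under 0.05, and 3 with limma on log2(FPKM + 1) or log2(FPKM + 0.1), where H2ac6 and H3c15 joined H2ac19. Leaving out 1 library gave 0 to 3 members: 3 without Becn1f/f;Pf4-iCre library 1 (H2ac19, H2ac6 and H3c15), 2 without Becn1f/f library 3 (H2ac19 and H3c14), 0 without Becn1f/f;Pf4-iCre library 3, and H2ac6 in place of H2ac19 without Becn1f/f library 1. The DEGs among all tested genes numbered 282, became 129 with limma on log2(FPKM + 1) and 5 at an adjusted p under 0.05. They rose to 373 with no filter on low counts. Leaving out 1 library gave 225 (without Becn1f/f;Pf4-iCre library 2) to 410 (without Becn1f/f library 2). Of the DEGs 59.2% were higher, 70.5% with limma on log2(FPKM + 1) and 49.3% without Becn1f/f library 2. With the replicate block there was 1 member past the thresholds, H2ac19, as without it. The deviations of same-numbered libraries had correlations of 0.06, -0.31 and 0.21. With 3 libraries per genotype, these values cannot decide whether the numbers pair the libraries. The median log2 fold change of members and the log2 ratio of their summed CPM moved by less than the spread between libraries under every alternative run on them, but their sign was not stable: leaving out 1 library took the median from -0.25 to 0.07 and the ratio from -0.19 to 0.10, and the other alternatives gave -0.08 to 0.00 and -0.10 to 0.04. The cause of these changes was not tested.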
